A study of Homo sapiens with 42 samples.

Results

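The loops described here are the chromatin loops anchored in the HOX gene clusters of K562, an established human leukemia cell line with a wild-type genotype in the labels. A loop is a pair of positions on 1 chromosome that are found together in crosslinked nuclei more often than their surroundings. It belonged to a cluster when the start of 1 of its 10 kb anchors lay in the region of HOXA (chr7:27070000-27240000), HOXB (chr17:48500000-48750000), HOXC (chr12:53910000-54080000) or HOXD (chr2:176060000-176210000) on build hg38. This rule used positions only and gave 37 of the 33914 loops of the deposited table: 12 at HOXA, 10 at HOXB, 4 at HOXC and 11 at HOXD.

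In situ Hi-C, which joins and reads DNA ends that lie close together, was done on K562 cells that had received 25 nM PMA for 0 h, 6 h or 72 h. PMA is a phorbol ester that drives these cells toward megakaryocytes. The 0 h cells are the untreated control, and cells of all 3 times share the same line, medium and genotype. The 42 samples form 12 libraries, 4 biological replicates per time, once technical replicates and repeat sequencing runs are summed. The labels do not say whether the replicates came from separate cultures, so p-values measure the spread between these samples, which may be technical. K562 is 1 leukemic line, and no expression was measured in these files. Contacts come from bulk cells, so fewer cells with a contact and less contact per cell cannot be told apart. Each count also holds the local background between its anchors.

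HOX genes encode homeodomain transcription factors that set position along the body axis. They lie in 4 clusters, with the genes in each ordered from anterior to posterior in the way they are used. In blood cells, genes such as HOXA9 and HOXB4 are active in stem and progenitor cells and are turned down as these cells mature. Silent HOX clusters are covered by Polycomb proteins, while the MLL (KMT2A) complex keeps active ones on. Enhancers of HOX genes often lie far outside the cluster, and at HOXD the posterior and the anterior genes are known to contact opposite flanks.

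The clusters also hold microRNA genes, and 4 of these lie in anchors of the loops described below: MIR3185 beside HOXB13 (anchor of loop29749 and loop29750), MIR196B beside HOXA9 (anchor of loop15831), MIR196A2 beside HOXC10 (anchor of loop23756, the loop with the lowest fold change) and MIR10A beside HOXB4 (anchor of loop29745, the loop inside the HOXB cluster). Both miR-196 genes target HOX messenger RNAs in textbook examples. The 5p mature sequences of MIR196A2, MIR196B and MIR10A from RefSeq (GRCh38.p14) are given 5′ to 3′, with the seed, bases 2 to 8, in capitals.
hsa-miR-196a-5p: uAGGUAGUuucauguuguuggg
hsa-miR-196b-5p: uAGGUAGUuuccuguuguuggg
hsa-miR-10a-5p: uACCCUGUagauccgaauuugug
The miR-196 pair share their seed and differ by 1 of 22 bases, A12C, counted from the 5′ end of hsa-miR-196a-5p. The miR-10a seed is another one. These mature sequences lie at chr12:53991762-53991783 on the plus strand, chr7:27169528-27169549 on the minus strand and chr17:48579904-48579926 on the minus strand.

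The start sites of HOXA4, HOXD8, HOXD13 and HOXD12 lie in anchors of at least 1 loop that rose at 72 h, and the 250 bases before each are shown for that reason. HOXA4 has 1 loop in its anchor, which rose. The HOXD8 anchor has 2 loops, of which 1 rose, and HOXD13 and HOXD12 share an anchor of 3 loops, of which 2 rose. Each is given on its gene's strand from RefSeq (GRCh38.p14). Capitals mark the letters GCCCCCT (the CTCF core AGGGGGC read on the other strand) and the TATA box TATAAA.
HOXA4 promoter: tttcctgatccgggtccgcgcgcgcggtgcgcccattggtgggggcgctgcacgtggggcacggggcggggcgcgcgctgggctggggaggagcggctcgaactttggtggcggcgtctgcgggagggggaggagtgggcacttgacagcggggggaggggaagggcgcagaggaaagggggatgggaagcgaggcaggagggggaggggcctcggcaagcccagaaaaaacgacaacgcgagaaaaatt
HOXD8 promoter: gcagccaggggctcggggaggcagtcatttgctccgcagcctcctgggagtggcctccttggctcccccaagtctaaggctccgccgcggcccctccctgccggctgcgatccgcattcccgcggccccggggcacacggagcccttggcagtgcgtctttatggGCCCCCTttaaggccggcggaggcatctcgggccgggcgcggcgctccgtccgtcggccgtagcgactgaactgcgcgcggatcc
HOXD13 promoter: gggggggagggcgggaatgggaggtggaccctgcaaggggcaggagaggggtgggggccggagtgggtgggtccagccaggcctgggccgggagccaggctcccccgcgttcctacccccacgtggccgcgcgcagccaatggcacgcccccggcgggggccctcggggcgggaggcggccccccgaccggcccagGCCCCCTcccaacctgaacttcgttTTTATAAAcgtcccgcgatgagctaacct
HOXD12 promoter: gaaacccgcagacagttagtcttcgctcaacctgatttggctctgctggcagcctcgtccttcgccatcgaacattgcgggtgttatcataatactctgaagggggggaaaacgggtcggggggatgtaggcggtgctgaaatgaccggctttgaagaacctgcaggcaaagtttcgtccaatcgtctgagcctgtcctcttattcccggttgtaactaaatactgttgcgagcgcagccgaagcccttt
They lie at chr7:27130758-27131007 (minus strand), chr2:176129455-176129704 (plus strand), chr2:176092471-176092720 (plus strand) and chr2:176099545-176099794 (plus strand). Their GC content was 70.0%, 72.4%, 74.0% and 53.2%, against a median of 58.0% over all start sites of the RefSeq table. On both strands of 300-base windows at all 35116 start sites, AGGGGGC occurred in 14.4%, TATAAA in 11.5%, the HOX-PBX motif TGATTNAT in 2.8% and the AP-1 motif TGANTCA in 7.7%. Of the 27 windows listed for 20 HOX genes, 4 held AGGGGGC, 5 held TATAAA, 2 held TGATTNAT and 0 held TGANTCA. In the HOXD13 promoter the TATA match overlaps a match on the other strand, which lengthens the run of capitals. The HOXA4 and HOXD12 promoters hold no match to these 4 motifs in the bases shown. A match describes letters only.

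Loop length differed between the clusters. HOXA loops spanned 280 to 1260 kb (median 755.0 kb) and HOXD loops 210 to 1340 kb (median 670.0 kb). HOXC loops spanned 150 to 380 kb (median 235.0 kb) and HOXB loops 30 to 580 kb (median 175.0 kb). All loops of the table had a median of 440.0 kb.

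In every cluster the loops to the low-coordinate flank and those to the high-coordinate flank started from separate sets of anchors that did not interleave. At HOXD, 6 loops left toward low coordinates from anchors at EVX2, HOXD13 and HOXD12, and 5 left toward high coordinates from anchors at HOXD9, HOXD8 and LOC401021, with 20 kb between the sets. At HOXA, 6 loops left toward low coordinates from anchors at HOXA4, HOXA3, HOXA7 and HOXA9, and 6 left toward high coordinates from HOXA13 and HOTTIP, a long noncoding RNA gene at the posterior end. The gap there was also 20 kb. HOXC had 2 loops on each side, from HOXC13 and HOXC11 on the low side and from HOXC10, HOXC9 and HOXC8 on the high side, with 10 kb between. HOXB had 4 loops to the low side, 5 to the high side and 1 with both anchors in the cluster, and its gap was 60 kb.

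The 37 loops used 22 anchors in the clusters, and 10 of these anchors served more than 1 loop. Loops that share an anchor are not independent of each other. Of the 38 HOX genes examined, 21 had an end in an anchor and 17 had none. Genes without an anchor included HOXA10 and HOXA11, HOXB8 and HOXB9, HOXC4 to HOXC6, and HOXD10, HOXD11, HOXD4 and HOXD3. Counting every gene that overlaps an anchor gave the same 21 genes.

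**Figure D1:**
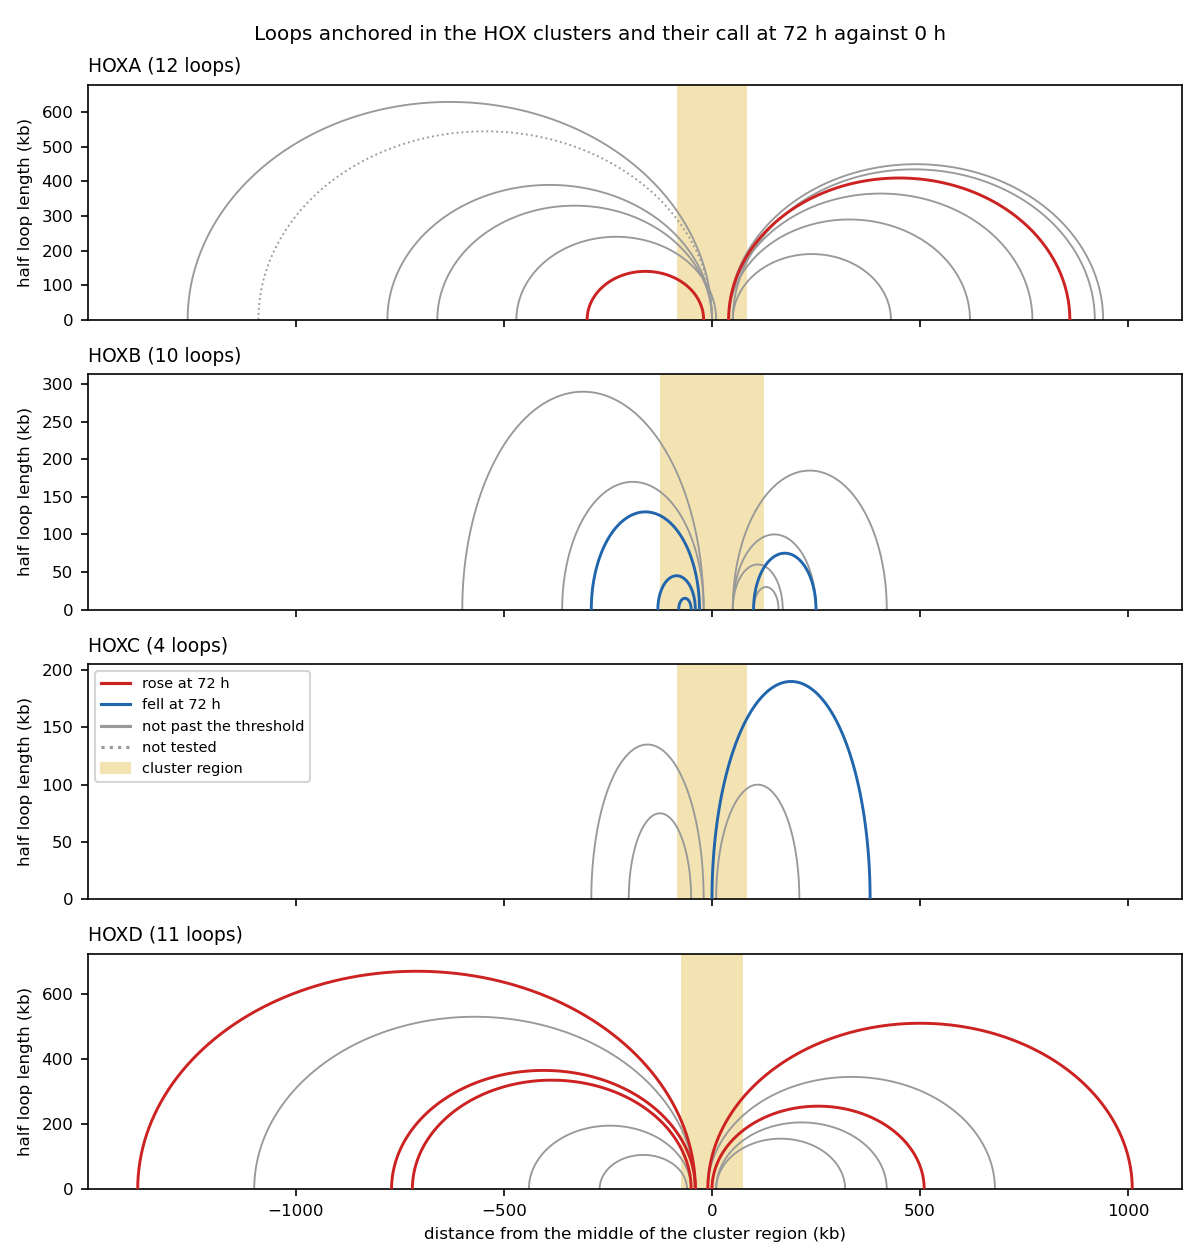
Each arc is 1 loop, drawn between its anchors by distance from the middle of the cluster region (horizontal axis, kb), with its height equal to 1/2 of the loop length (kb, scaled per panel). Red arcs rose and blue arcs fell at 72 h against 0 h, gray arcs did not pass the threshold and the dotted arc was not tested; rising arcs are at HOXA (2) and HOXD (5), falling arcs at HOXB (4) and HOXC (1).

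The libraries held 736929 to 1472197 contacts over all loops, and 24132 loops had enough counts to be tested. At 72 h, replicates 3 and 4 agreed within sampling noise (chi-square per degree of freedom 1.00, p = 0.36). Replicates 3 and 4 were also close at 0 h (1.02, chi-square p = 0.021) and 6 h (1.02, chi-square p = 0.0059). The other pairs of the same time had 1.06 to 1.27. Only the 72 h pair was counted as 1 sample, in each 72 h mean ± SD (n = 3, against n = 4 at 0 h and 6 h). The fit kept replicates 3 and 4 as separate libraries at every time, and so do its p-values. Normalized contacts are counts per 1000000 contacts of the tested loops, after TMM scaling of each library. Values per library are given for replicates 1, 2, 3 and 4 in that order. Log2 fold changes carry their standard error (SE), and adjusted p-values come from edgeR's quasi-likelihood test with Benjamini-Hochberg adjustment over all 24132 tested loops, with a threshold of 0.05. Replicates 1 and 2 and replicates 3 and 4 differ in their technical replicates and sequencing runs per the labels, so fits within each pair are also given.

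Of the 37 HOX loops, 36 passed the filter on low counts. At 72 h against 0 h, 12 of these (33.3%) changed, 7 upward and 5 downward, and 17 had an unadjusted p under 0.05. The share over all tested loops was 33.6%, with 16.7% that rose and 16.9% that fell, so the HOX share was near the background. By cluster, 5 of 11 HOXD loops rose (median log2 fold change 0.44), 2 of 11 HOXA loops rose (median 0.19), 4 of 10 HOXB loops fell (median -0.10) and 1 of 4 HOXC loops fell (median -0.21). The median over all tested loops was 0.01. No HOXA or HOXD loop fell and no HOXB or HOXC loop rose past the threshold. Whether the clusters differ from each other was not tested. With libraries scaled to their total count, 11 HOX loops rose and 5 fell, and with a correction for loop length 4 rose and 4 fell. The background moved too: over all tested loops, total count scaling gave 4667 that rose and 3388 that fell, from 4024 and 4081. The length correction gave 3314 and 3847. In both of these settings no called loop went against the directions given for its cluster. The exception among all alternatives was loop4391 of HOXD, which ends at EVX2: it fell past the threshold with no filter on low counts (-0.41, edgeR adjusted p = 0.038) and without the 0 h library of replicate 3 (-0.40, adjusted p = 0.045).

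At 6 h against 0 h, 4 of the 36 loops (11.1%) changed, against 6.41% of all tested loops. Of these, 1 rose, against a background of 2.34%, and 3 fell, against 4.07%. Scaling to total counts moved the background to 769 loops that rose and 731 that fell, from 565 and 981, and left the HOX count at 1 and 3. With the length correction 0 HOX loops rose and 2 fell, where 422 of all tested loops rose and 568 fell. None of the 11 HOXA loops and none of the 11 HOXD loops passed the threshold at 6 h with edgeR, where 3 HOXA loops and 1 HOXD loop had an unadjusted p under 0.05. At 72 h against 6 h, 10 of the 36 loops (27.8%) changed, against 20.5% of all tested loops. There 6 rose (1 at HOXA and 5 at HOXD, background 10.7%) and 4 fell (3 at HOXB and 1 at HOXC, background 9.81%). This count was 5 with DESeq2 and 6 without the 6 h library of replicate 2.

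Within replicates 1 and 2 alone, all 12 loops called at 72 h against 0 h kept their direction and 8 passed the threshold. Within replicates 3 and 4 alone, all 12 kept their direction and 7 passed. Of the 4 loops called at 6 h, all kept their direction in both pairs, with 0 and 1 past the threshold. Of the 10 called at 72 h against 6 h, all kept their direction, with 5 and 4 past it. Both pairs are part of the fit that made these calls, so the kept directions are not separate support.

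**Figure D2:**
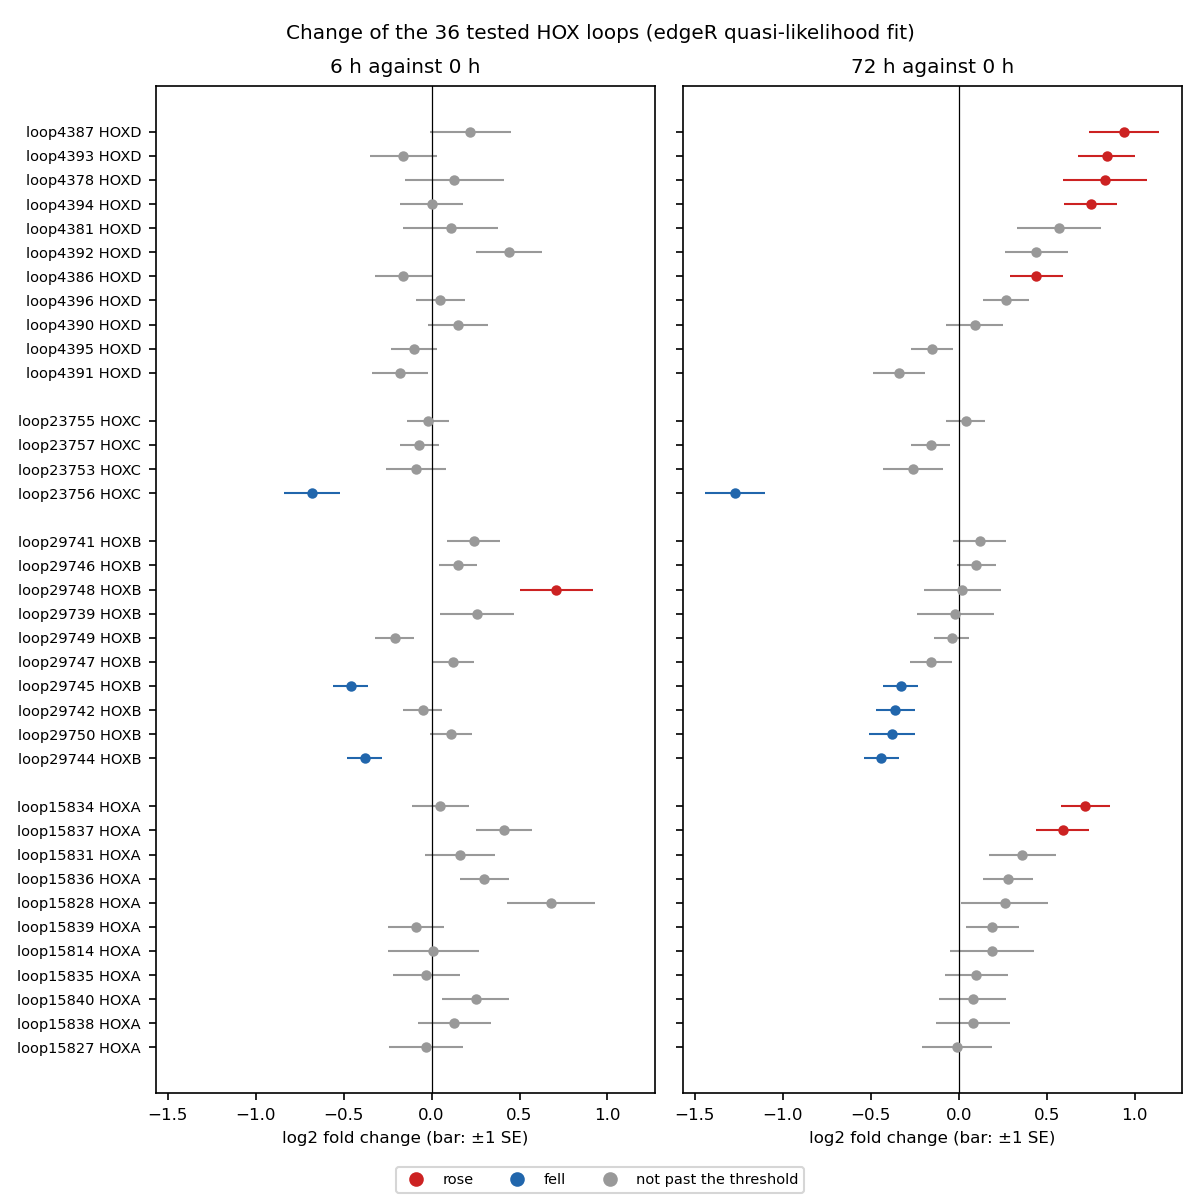
Log2 fold change (horizontal axis) of each of the 36 tested HOX loops at 6 h (left) and 72 h (right) against 0 h, with bars of 1 SE on each side; loops are grouped by cluster and sorted by their 72 h value. At 72 h the HOXD loops reach from -0.34 to 0.94 and the HOXA loops from -0.01 to 0.72, while loop23756 of HOXC stands at -1.27.

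HOXD had the largest share of rising loops, on both flanks. The 3 loops to the low side that rose came from the posterior end, where HOXD13 and HOXD12 pattern the distal limb and the genital and urinary tract and EVX2 encodes a neighboring homeobox factor. The 2 loops to the high side that rose came from HOXD9 and HOXD8, whose products act in more anterior trunk. None of the 5 had passed the threshold at 6 h, and all 5 also rose from 6 h to 72 h.

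loop4393 joined the HOXD9 and HOXD8 anchor (chr2:176120001-176130000) to an anchor 1020 kb away (chr2:177140001-177150000) inside the uncharacterized gene LOC105373760. Its normalized contacts were 31.9, 26.6, 32.6 and 25.0 at 0 h, 26.5, 27.1, 22.6 and 26.5 at 6 h, and 53.1, 47.2, 63.4 and 51.8 at 72 h. Every 72 h library lay above every library of the other times. The means were 29.0 ± 3.79 (SD, n = 4), 25.7 ± 2.05 (SD, n = 4) and 52.6 ± 5.23 (SD, n = 3). The change at 72 h against 0 h was 0.84 (SE 0.16, edgeR adjusted p = 7.5e-06), or 1.79-fold, and that against 6 h was 1.00 (SE 0.17, edgeR adjusted p = 2e-06). With the length correction the value against 0 h was 0.47 (adjusted p = 0.016).

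loop4394 joined the neighboring anchor at HOXD8 and HOXD-AS2, an antisense RNA gene (chr2:176130001-176140000), to chr2:176640001-176650000 in the noncoding gene LINC01117, over 510 kb. The libraries gave 28.2, 38, 33.9 and 33.0 normalized contacts at 0 h, 31.4, 30.8, 31.1 and 38.6 at 6 h, and 54.0, 55.2, 52.0 and 64.3 at 72 h. The 0 h and 6 h libraries overlapped and the 72 h libraries stood above both. Means were 33.3 ± 3.99 (SD, n = 4), 33.0 ± 3.75 (SD, n = 4) and 55.8 ± 2.14 (SD, n = 3). Against 0 h, the 72 h value was 0.75 (SE 0.15, edgeR adjusted p = 3.6e-05), and that against 6 h was also 0.75 (SE 0.16, adjusted p = 0.00016).

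loop4387 joined the anchor that holds EVX2 and the outer end of HOXD13 (chr2:176080001-176090000) to chr2:175410001-175420000, where the annotation table lists no gene, over 670 kb. The RefSeq start site shown above for HOXD13 lies in the next anchor. Normalized contacts per library were 18.1, 9.5, 22.6 and 15.9 at 0 h, 15.7, 21.5, 21.2 and 19.3 at 6 h, and 36.3, 44.2, 27.0 and 25.0 at 72 h. All 72 h libraries exceeded all earlier ones, with replicates 1 and 2 the highest. At 72 h the change against 0 h was 0.94 (SE 0.20, edgeR adjusted p = 8.1e-05), or 1.91-fold. Within replicates 3 and 4 it was 0.40 (adjusted p = 0.35), and within replicates 1 and 2 it was 1.36 (adjusted p = 1.9e-05). The change from 6 h to 72 h was 0.72 (adjusted p = 0.0054), with adjusted p = 0.058 without the 72 h library of replicate 2, 0.061 with DESeq2 and 0.53 within replicates 3 and 4.

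loop4386 and loop4378 both started from the HOXD13 and HOXD12 anchor (chr2:176090001-176100000). loop4386 reached chr2:175360001-175370000, where no gene is listed, over 730 kb. In normalized contacts it held 44.9, 39.9, 47.7 and 36.4 at 0 h, 47.1, 36.4, 42.5 and 24.1 at 6 h, and 52.2, 56.2, 59.3 and 65.2 at 72 h. The 72 h libraries did not overlap the others. The change at 72 h against 0 h was 0.44 (SE 0.15, edgeR adjusted p = 0.012) and against 6 h 0.60 (SE 0.15, adjusted p = 0.0023). The first of these calls was lost with the length correction (0.21, adjusted p = 0.27), with DESeq2 (adjusted p = 0.072), within replicates 1 and 2 (0.31, adjusted p = 0.26), and without replicate 4 of 0 h (adjusted p = 0.053) or of 72 h (adjusted p = 0.055). The second was lost within replicates 1 and 2 (adjusted p = 0.26).

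loop4378 was the longest HOX loop, 1340 kb, and reached chr2:174750001-174760000 in CHRNA1, which encodes a subunit of the muscle acetylcholine receptor. The 12 libraries measured 10.9, 11.4, 6.3 and 10.2 normalized contacts at 0 h, 12.7, 7.5, 15.6 and 9.7 at 6 h, and 15, 15.1, 23.9 and 23.2 at 72 h. The 72 h libraries lay above those of 0 h and overlapped those of 6 h. It is the sparsest of the changed loops: a count of 12, its median over libraries rounded down, has an exact 95% Poisson interval of 6.2 to 21.0, for counting error only. Against 0 h, the 72 h value was 0.83 (SE 0.24, edgeR adjusted p = 0.0046). It was 0.39 (adjusted p = 0.22) with the length correction, 0.37 (adjusted p = 0.47) within replicates 1 and 2, and 1.28 (adjusted p = 0.0048) within replicates 3 and 4. The change from 6 h was 0.70 (adjusted p = 0.030), and that call was lost in 8 of 24 alternatives, among them the length correction, DESeq2 and leaving out replicate 2 or 4 of 6 h or replicate 3 or 4 of 72 h.

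Long loops as a class had higher contacts at 72 h. Among the 358 tested loops within 10% of the length of loop4378, the median log2 fold change at 72 h against 0 h was 0.45 and 33.0% rose. Among the 725 of like length to loop4393 the median was 0.33 and 28.4% rose, and among the 1433 of like length to loop4386 it was 0.22 and 18.4% rose. For loop4387 (1569 loops) and loop4394 (2169 loops) the medians of like length were 0.16 and 0.08. The 3 HOXD loops that passed the threshold with the length correction were loop4387 (0.75), loop4394 (0.65) and loop4393 (0.47).

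The other 6 HOXD loops did not pass the threshold at 72 h against 0 h. loop4392, which shares the HOXD9 and HOXD8 anchor and reaches 690 kb, had 0.44 (adjusted p = 0.051), and loop4381, from the HOXD13 and HOXD12 anchor, had 0.57 (adjusted p = 0.053). The loop with the most contacts, loop4395, ran 310 kb from LOC401021 to chr2:176450001-176460000. Its normalized contacts had means of 84.7 ± 9.06 (SD, n = 4), 77.9 ± 9.86 (SD, n = 4) and 78.5 ± 11.3 (SD, n = 3) at 0 h, 6 h and 72 h, with overlapping libraries and a change at 72 h of -0.15 (SE 0.12, adjusted p = 0.34). The lowest value, -0.34 (adjusted p = 0.074), belonged to loop4391, the shortest HOXD loop, which ends at EVX2.

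Loops that only share an outer anchor with the HOXD loops were examined as neighbors. loop4400 runs from LINC01117 (chr2:176650001) to the outer anchor of loop4393 and changed by 0.88 at 72 h against 0 h (SE 0.18, edgeR adjusted p = 3.5e-05) and by 0.96 against 6 h (adjusted p = 5.3e-05). loop4397, which shares the outer anchor of loop4395, rose by 0.56 (adjusted p = 0.0021), and loop4399, which runs from the anchor of loop4400 at LINC01117, rose by 0.49 (adjusted p = 0.027). loop4398 had already risen at 6 h (0.58, adjusted p = 0.0076) and stood at 0.66 at 72 h (adjusted p = 8.7e-05). None of these 4 loops has an anchor in the cluster. On the low side, loop4380, which shares the outer anchor of loop4381, fell by 0.55 (adjusted p = 0.0021). The remaining loops of this kind, loop4385 (0.46, adjusted p = 0.058) and loop4402 (0.18, adjusted p = 0.49), did not pass. At HOXA, the loops sharing an outer anchor that passed at 72 h against 0 h both fell: loop15812 (-0.55, adjusted p = 0.00049) and loop15825 (-0.29, adjusted p = 0.049).

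At HOXA, 2 loops rose at 72 h, 1 on each flank. loop15834 joined HOXA4, a gene of the anterior to middle part of the cluster (chr7:27130001-27140000), to chr7:26850001-26860000 in SKAP2, which encodes an adaptor protein of Src-family kinase signaling in blood cells, over 280 kb. Its normalized contacts were 36.9, 32.3, 45.2 and 45.5 at 0 h, 38.2, 49.5, 42.5 and 31.4 at 6 h, and 69.0, 69.3, 70.7 and 56.2 at 72 h. The 72 h libraries stood above both earlier times, which overlapped. Means were 40.0 ± 6.47 (SD, n = 4), 40.4 ± 7.61 (SD, n = 4) and 67.2 ± 3.27 (SD, n = 3). At 72 h the change against 0 h was 0.72 (SE 0.14, edgeR adjusted p = 2.2e-05), or 1.65-fold, and against 6 h it was 0.67 (SE 0.15, adjusted p = 0.00031). Among the 1975 tested loops of like length the median was -0.02. Within replicates 3 and 4 the change against 0 h was 0.45 (adjusted p = 0.099).

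loop15837 joined HOXA13, the most posterior gene of the cluster (chr7:27190001-27200000), to chr7:28010001-28020000 in JAZF1, a zinc finger gene, over 820 kb. The libraries gave 29.7, 36.1, 46.4 and 42.1 normalized contacts at 0 h, 52.0, 48.6, 52.4 and 48.3 at 6 h, and 69.0, 51.2, 49.9 and 57.1 at 72 h. The libraries of both treated times lay above those of 0 h and overlapped each other. The change was 0.41 at 6 h (SE 0.16, edgeR adjusted p = 0.10), short of the threshold, and 0.59 at 72 h (SE 0.15, adjusted p = 0.0009). With the length correction the 72 h value was 0.31 (adjusted p = 0.10), and within replicates 3 and 4 it was 0.27 (adjusted p = 0.38). The 1134 tested loops of like length had a median of 0.26.

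HOXA13 had several further partners in or near JAZF1. loop15836, from the same HOXA13 anchor to chr7:27920001-27930000, had the most contacts of the HOXA loops, with means of 52.7 ± 6.64 (SD, n = 4), 64.9 ± 3.69 (SD, n = 4) and 63.9 ± 3.51 (SD, n = 3). Its change was 0.30 at 6 h (SE 0.14, adjusted p = 0.20) and 0.28 at 72 h (SE 0.14, adjusted p = 0.10). The 6 h libraries did not overlap those of 0 h and the 72 h libraries did. The 72 h value passed the threshold with total count scaling (adjusted p = 0.047) and with a stricter filter on low counts (adjusted p = 0.037). The loops of HOXA13 and HOTTIP to HIBADH, an enzyme of valine breakdown, to TAX1BP1, an autophagy receptor gene, and to other parts of JAZF1 had 72 h values between 0.08 and 0.19 and did not pass.

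The loops from the HOXA3 and HOXA7 anchor toward SNX10, a sorting nexin gene, and beyond had few contacts. Their 72 h values were -0.01 for loop15827, 0.19 for loop15814 and 0.26 for loop15828. loop15831, from the anchor of HOXA9 and MIR196B to SKAP2, had 0.36 (SE 0.19, adjusted p = 0.13), with means of 22.5, 24.7 and 30.4 normalized contacts over the 3 times. The only HOX loop that was not tested, loop15817, ran from the HOXA3 and HOXA7 anchor over 1090 kb, with a mean raw count of 7.5 per library. Fitted with no filter on low counts it gave 0.94 at 72 h (SE 0.31, adjusted p = 0.014) and 0.54 at 6 h (adjusted p = 0.41).

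**Figure D3:**
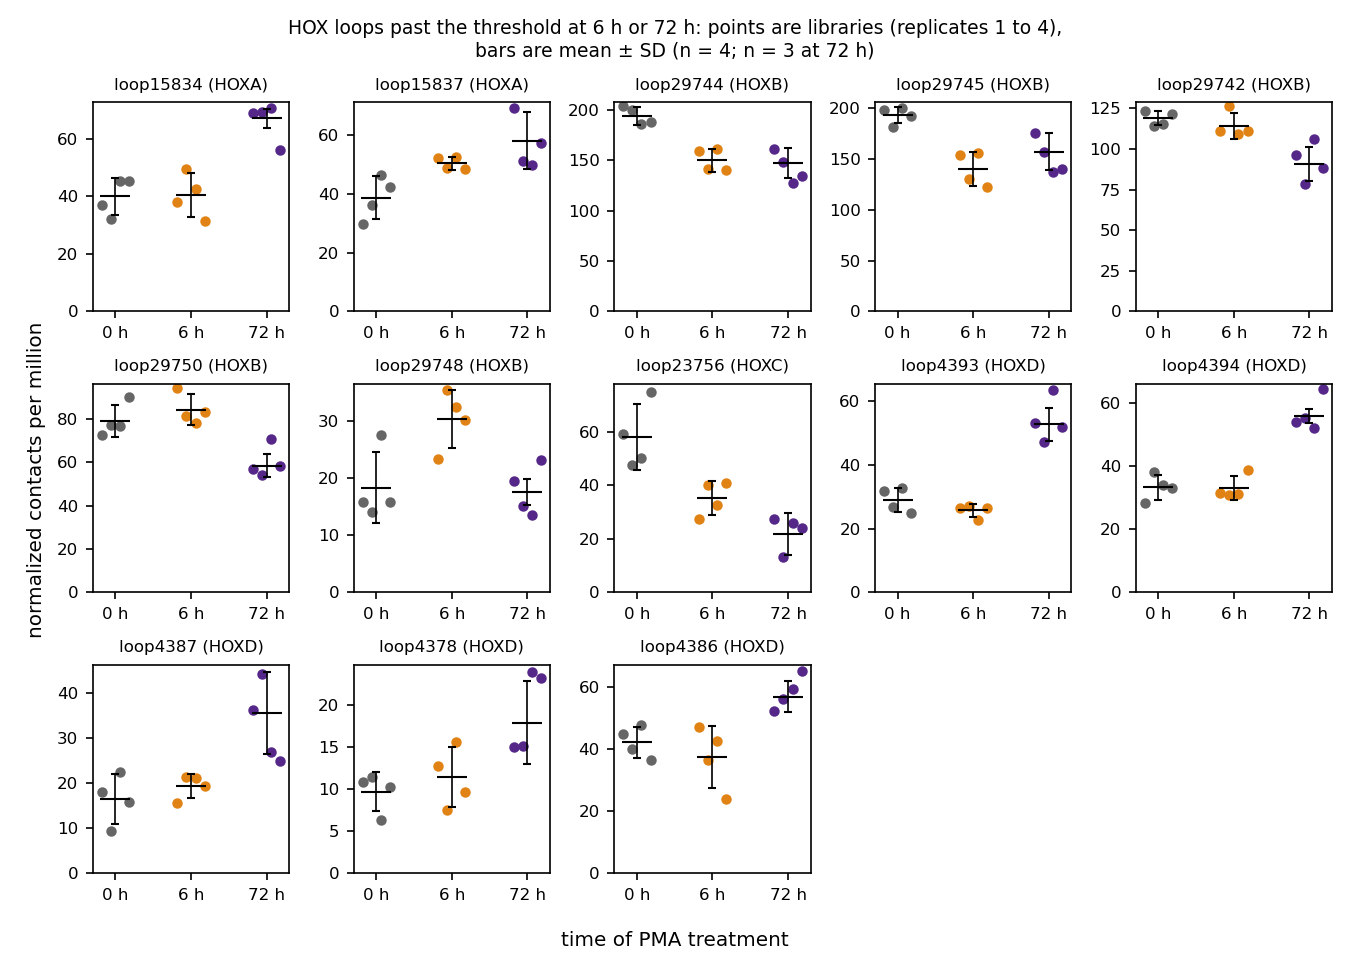
Normalized contacts (vertical axis, from 0) of the 13 HOX loops past the threshold at 6 h or 72 h against 0 h, by time of PMA treatment; each point is 1 library in the order of replicates 1 to 4, and black bars are the mean ± SD (n = 4, and n = 3 at 72 h). For loop4393 the 72 h libraries lie between 47.2 and 63.4, above the highest 0 h library at 32.6, and for loop23756 they lie between 13.1 and 27.4, below the lowest 0 h library at 47.5.

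At HOXB, 4 loops fell at 72 h and 2 of them had already fallen at 6 h. Those 2 were short and lay at the anterior end, around HOXB2, HOXB3 and HOXB4. loop29745 has both anchors in the cluster and joins HOXB2 and HOXB3 (chr17:48540001-48550000) to HOXB4 and MIR10A (chr17:48570001-48580000), 30 kb away. HOXB4 is known for promoting self-renewal of blood stem cells. Normalized contacts per library were 198.4, 181.3, 199.5 and 192.2 at 0 h, 153.9, 129.9, 155.7 and 121.8 at 6 h, and 175.2, 156.6, 137.3 and 140.1 at 72 h. All 0 h libraries stood above all treated ones, and the treated times overlapped.

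The change of loop29745 was -0.46 at 6 h (SE 0.10, edgeR adjusted p = 0.0011) and -0.33 at 72 h (SE 0.10, adjusted p = 0.0037). Its change from 6 h to 72 h was 0.12 (SE 0.10, adjusted p = 0.41). The shortest loops as a class also had lower contacts: among the 82 tested loops within 10% of its length, the 72 h median was -0.35 and 61.0% fell, and at 6 h the median was -0.21 and 32.9% fell. With the length correction its value was -0.11 at 72 h (adjusted p = 0.38) and -0.28 at 6 h (adjusted p = 0.059). Within replicates 1 and 2 it was -0.21 (adjusted p = 0.28) and -0.43 (adjusted p = 0.070).

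loop29744 joined an anchor in HOXB3 that holds HOXBLINC, a long noncoding RNA gene of the cluster (chr17:48580001-48590000), to chr17:48490001-48500000, just outside the cluster region, over 90 kb. In normalized contacts it held 203.5, 200.3, 185.7 and 187.6 at 0 h, 158.8, 141.1, 161.3 and 139.9 at 6 h, and 161.0, 148.6, 127.9 and 133.9 at 72 h. As with its neighbor, every 0 h library exceeded every treated one. The change was -0.38 at 6 h (SE 0.10, edgeR adjusted p = 0.0079) and -0.44 at 72 h (SE 0.10, adjusted p = 0.00011). The 434 tested loops of like length had a 72 h median of -0.16, and 31.3% of them fell. With the length correction the 72 h value of loop29744 was -0.36 (adjusted p = 0.00075). The 6 h call was lost within replicates 1 and 2 (adjusted p = 0.062) and within replicates 3 and 4 (adjusted p = 0.23).

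loop29742 joined HOXB3, HOXB5 and HOXB6 (chr17:48590001-48600000) to chr17:48330001-48340000 in SKAP1, a T-cell adaptor gene, over 260 kb. The 12 libraries measured 123.1, 113.9, 115.4 and 121.7 normalized contacts at 0 h, 110.8, 126.2, 109.0 and 111.0 at 6 h, and 96.4, 78.3, 106.1 and 88.4 at 72 h. The 72 h libraries lay below both earlier times, which overlapped. The change at 72 h was -0.36 against 0 h (SE 0.11, edgeR adjusted p = 0.0070) and -0.31 against 6 h (SE 0.11, adjusted p = 0.038). The first was -0.29 within replicates 3 and 4 (adjusted p = 0.16). The second was lost in 7 of 25 alternatives, with DESeq2 (adjusted p = 0.12), within either replicate pair, and without replicate 1 (0.054) or 2 (0.13) of 6 h or replicate 2 (0.15) or 4 (0.089) of 72 h. The 2069 tested loops of like length to loop29742 had a 72 h median of -0.03, and 17.0% fell. The other loops to this flank, from HOXB6 and HOXB7 to SKAP1 (loop29741, 0.12) and to COPZ2, a coat protein gene (loop29739, -0.02), did not pass.

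loop29750 ran from the posterior gene HOXB13, known from prostate, and the adjacent PRAC1 and PRAC2 genes (chr17:48720001-48730000) to chr17:48870001-48880000 over 150 kb. Its normalized contacts were 72.4, 76.9, 76.5 and 89.8 at 0 h, 94.1, 81.3, 77.8 and 83.2 at 6 h, and 56.6, 54.2, 70.7 and 58.0 at 72 h. The 72 h libraries stood below all others. The change at 72 h was -0.38 against 0 h (SE 0.13, edgeR adjusted p = 0.014) and -0.49 against 6 h (SE 0.13, adjusted p = 0.0031). The first call was lost with DESeq2 (adjusted p = 0.052), without the 0 h library of replicate 4 (adjusted p = 0.052), and within replicates 1 and 2 (adjusted p = 0.072) or 3 and 4 (adjusted p = 0.12). The second was lost within replicates 3 and 4 (adjusted p = 0.26). Among the 1518 tested loops of like length the 72 h median against 0 h was -0.08, and 25.6% fell. loop29749, from the same HOXB13 anchor to TTLL6, a tubulin-modifying enzyme gene, had -0.04 at 72 h (SE 0.10, adjusted p = 0.80), with means of 136 ± 7.30 (SD, n = 4), 116 ± 15.1 (SD, n = 4) and 134 ± 14.3 (SD, n = 3).

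loop29748 was the only HOX loop that rose at 6 h. It joined the noncoding gene LINC02086 (chr17:48670001-48680000) to IGF2BP1, which encodes a fetal RNA-binding protein (chr17:49040001-49050000), over 370 kb. The libraries gave 15.9, 14.2, 27.6 and 15.9 normalized contacts at 0 h, 23.5, 35.5, 32.5 and 30.2 at 6 h, and 19.5, 15.1, 13.5 and 23.2 at 72 h. The 6 h libraries stood above those of 72 h and overlapped those of 0 h through replicate 3. The change at 6 h was 0.71 (SE 0.21, edgeR adjusted p = 0.020), that from 6 h to 72 h was -0.69 (SE 0.20, adjusted p = 0.0089), and that at 72 h against 0 h was 0.02 (SE 0.22, adjusted p = 0.96). The rise at 6 h was lost without replicate 1 (adjusted p = 0.10), 2 (0.070) or 4 (0.054) of 0 h, without replicate 2 of 6 h (0.11), with the length correction (0.050, at the threshold) and within replicates 1 and 2 (0.057) or 3 and 4 (0.47). The later fall was lost with DESeq2 (0.066), without replicate 2 of 6 h (0.052) and within replicates 1 and 2 (0.077) or 3 and 4 (0.13). The neighbor loop29752, which shares the IGF2BP1 anchor, had 0.33 at 6 h (adjusted p = 0.24) and fell by 0.55 from 6 h to 72 h (adjusted p = 0.013).

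At HOXC, 1 of 4 loops changed, and its fall was the largest change of any HOX loop. loop23756 joined HOXC10 and MIR196A2 (chr12:53990001-54000000) to chr12:54370001-54380000, in ZNF385A, a zinc finger gene, and GPR84-AS1, over 380 kb. Normalized contacts per library were 59.4, 47.5, 50.2 and 75.0 at 0 h, 27.5, 40.2, 32.5 and 41.0 at 6 h, and 27.4, 13.1, 26.0 and 24.1 at 72 h. No library of one time overlapped those of another, though the lowest at 6 h (27.5) and the highest at 72 h (27.4) nearly met. Means were 58.0 ± 12.4 (SD, n = 4), 35.3 ± 6.47 (SD, n = 4) and 21.8 ± 7.70 (SD, n = 3).

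The change of loop23756 was -0.68 at 6 h (SE 0.16, edgeR adjusted p = 0.0025) and -1.27 at 72 h (SE 0.17, adjusted p = 2.3e-10), so that contacts were 2.42-fold lower. The step from 6 h to 72 h was -0.59 (SE 0.19, adjusted p = 0.017). The 2045 tested loops of like length had a 72 h median of 0.03. The 72 h value was -1.33 within replicates 1 and 2 and -1.27 within replicates 3 and 4, and it stayed past the threshold in every alternative examined. The 6 h call was lost within replicates 1 and 2 (adjusted p = 0.057) and 3 and 4 (adjusted p = 0.077). The later step was lost in 6 of 25 alternatives, with DESeq2 (adjusted p = 0.081), within either pair, and without replicate 2 (0.075) or 4 (0.065) of 6 h or replicate 2 of 72 h (0.12).

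The loops of the other HOXC anchors did not pass the threshold, and their difference from loop23756 was not tested. loop23757 left the next anchor, at HOXC9 and HOXC8 (chr12:54000001-54010000), toward the same flank over 200 kb, with means of 113 ± 4.75 (SD, n = 4), 107 ± 14.8 (SD, n = 4) and 102 ± 6.93 (SD, n = 3) and a 72 h value of -0.16 (SE 0.11, adjusted p = 0.25). loop23755, from HOXC13 to the low side, had 102 ± 7.33 (SD, n = 4), 99.6 ± 1.37 (SD, n = 4) and 104 ± 11.8 (SD, n = 3), with a 72 h value of 0.04 (SE 0.11, adjusted p = 0.81). loop23753, from HOXC11 and HOTAIR, a long noncoding RNA gene, to CALCOCO1, had -0.26 (SE 0.17, adjusted p = 0.23).

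The normalized contacts of the tested loops were also summed per cluster, as a description with no test. These sums include the loops called above, so they are not separate support for a change of the whole cluster. At HOXC, for example, loop23756 went from a mean of 58.0 at 0 h to 21.8 at 72 h, and loop23755 from 102 to 104. The HOXA sum was 312 ± 15.3 (SD, n = 4) at 0 h, 348 ± 26.0 (SD, n = 4) at 6 h and 392 ± 17.4 (SD, n = 3) at 72 h, a 72 h ratio of 1.26. The HOXD sum was 398 ± 18.6 (SD, n = 4), 398 ± 13.7 (SD, n = 4) and 504 ± 13.0 (SD, n = 3), a ratio of 1.27. The HOXB sum was 999.5 ± 26.0 (SD, n = 4), 927 ± 46.1 (SD, n = 4) and 862 ± 26.6 (SD, n = 3), a ratio of 0.862. The HOXC sum was 308 ± 7.76 (SD, n = 4), 276 ± 17.3 (SD, n = 4) and 257 ± 0.841 (SD, n = 3), a ratio of 0.833. Its 72 h libraries were 256.5, 256.0, 247.5 and 267.8, so its small 72 h SD comes from averaging replicates 3 and 4. In each cluster the 72 h libraries did not overlap those of 0 h. HOXA, HOXB and HOXC had intermediate mean sums at 6 h, while the HOXD sum at 6 h was that of 0 h.

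**Figure D4:**
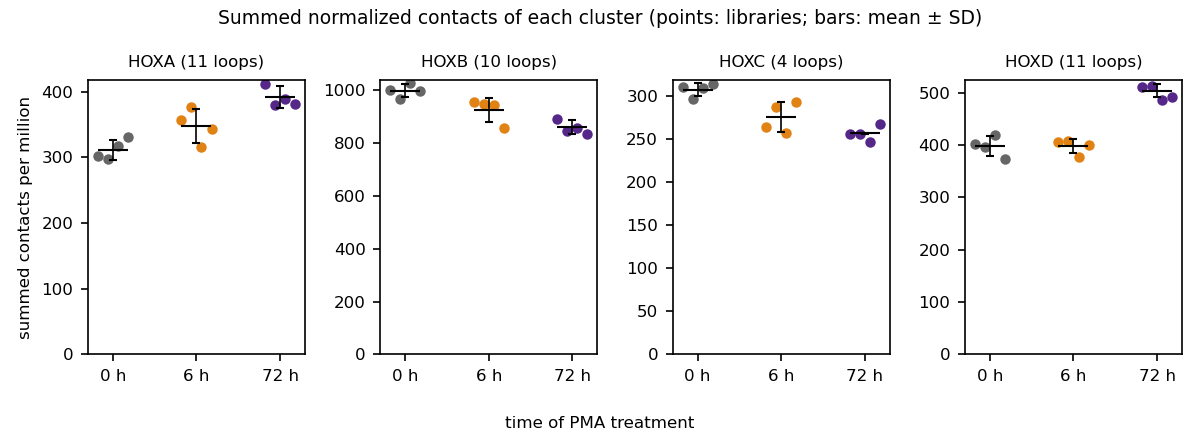
Summed normalized contacts (vertical axis, from 0) of the tested loops of each cluster by time of PMA treatment; points are libraries in the order of replicates 1 to 4 and black bars are the mean ± SD (n = 4, and n = 3 at 72 h). The 72 h libraries of HOXD lie between 486.7 and 513.0, above the highest 0 h library at 419.0, and those of HOXB lie between 836.4 and 892.6, below the lowest 0 h library at 966.4.

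The authors' deposited table gives its own log2 fold change for 34 of the 37 HOX loops and an adjusted p-value, 1 per loop over the time points, for 32. Of these p-values from the authors' deposited table, 7 were below 0.05, and all 7 loops passed the threshold at 6 h or 72 h in the fit used here. The reverse did not hold for all loops called here. The authors' deposited adjusted p was 0.052 for loop4386, 0.086 for loop15837, 0.088 for loop29750, 0.11 for loop29748 and 0.17 for loop29742. For loop4378 none was given.

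Loops at genes that regulate HOX genes or work with their products were counted from lists. The TALE proteins, the MEIS, PBX and PKNOX homeodomain factors that bind DNA together with HOX proteins, had 13 tested loops with a gene end in an anchor. Of these 4 rose and 2 fell at 72 h (median -0.09), read against 16.7% and 16.9% of all tested loops. The rising ones were at MEIS1 (loop3716, 0.80, adjusted p = 0.025, and loop3722, 0.33, adjusted p = 0.023), MEIS2 (loop27634, 0.72, adjusted p = 0.016) and PKNOX2 (loop22764, 0.41, adjusted p = 0.043). The falling ones were at PBX2 (loop13576, -0.55, adjusted p = 5.7e-07) and PKNOX1 (loop32265, -0.42, adjusted p = 0.0071), and both had fallen at 6 h too. The rising loops spanned 560 kb (loop3716), 60 kb (loop3722), 1580 kb (loop27634) and 240 kb (loop22764), and both falling loops 60 kb. At 0 h, loop3716 and loop27634 had means of only 6.29 and 9.88 normalized contacts.

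Polycomb genes, whose products silence HOX clusters, had 17 tested loops, of which 1 rose and 4 fell at 72 h (median -0.19), where 16.7% of all tested loops rose and 16.9% fell. The rising loop was at BMI1 (loop20111, 0.65, adjusted p = 0.0020), a core subunit of the Polycomb complex PRC1. Falling loops were at JARID2 (loop13348, -1.07, adjusted p = 1.5e-09, and loop13349, -0.77, adjusted p = 2.6e-05), SUZ12 (loop29561, -0.53, adjusted p = 0.00065) and PCGF2 (loop29626, -0.32, adjusted p = 0.015). Trithorax and MLL partner genes had 4 tested loops, of which 0 rose and 3 fell (median -0.49), too few loops to read against the 16.9% of all tested loops that fell. The 3 were at AFF1 (loop9159, -0.56, adjusted p = 8.9e-05), DOT1L (loop30562, -0.42, adjusted p = 0.011) and KMT2B (loop30912, -0.69, adjusted p = 1.4e-05). CDX and retinoid receptor genes, which act upstream of HOX genes in the embryo, had 13 tested loops, of which 1 rose and 6 fell (median -0.29), against 16.7% and 16.9% of all tested loops. The rise was at RARB (loop5166, 0.60, adjusted p = 0.046), and the largest fall was at RARA (loop29645, -0.80, adjusted p = 1.2e-07). Of the loops named in this paragraph, the rising ones spanned 210 kb (BMI1) and 830 kb (RARB), and the falling ones 60 to 200 kb. These lists are small, and their alternatives, among them the correction for loop length, were not computed.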

How the data were processed

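In situ Hi-C of K562 cells was analyzed in 42 samples, summed into 12 libraries (4 biological replicates each at 0 h, 6 h and 72 h). Per the file headers, the authors deposited 1 table of raw contact counts for 33914 loops in 30 columns, 1 per technical replicate, with anchor positions (deposited from 0, given here from 1), which are the other kind of value in that deposited table. It also holds the authors' log2 fold changes and an adjusted p-value per loop, whose making the headers do not state. Per the submitters' processing notes, the build was hg38, and Juicer 1.5.6 and DESeq2 were named.

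The counts were analyzed in R 4.3.3 with edgeR 4.0.16 (filterByExpr with minimum count 10 and minimum total 15, TMM scaling, quasi-likelihood test, prior count 2, Benjamini-Hochberg threshold 0.05) in 1 model of all 12 libraries, which was tested on simulated data. The simulated libraries were independent, with 1 spread for all loops, so the simulation cannot show that the p-values hold for the replicates used here. The filter put 9782 loops aside. The SE was taken as the absolute log2 fold change over the square root of the F statistic. Libraries held 849895 to 1472197 contacts at 0 h, 736929 to 1090199 at 6 h and 988726 to 1181057 at 72 h. Alternatives were other scalings, filters, DESeq2 1.42.0, a loess correction on loop length, a replicate block, replicate pairs and libraries left out.

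The clusters, HOX genes and lists were chosen with earlier results of these data known. Loops named with values were, per cluster, up to 6 past the threshold by smallest adjusted p, the loop with the highest mean count, and the loop with the smallest 72 h change among those with a mean count of at least 50. Other loops were added after their values were seen. Gene names are genes with an end inside an anchor, or over it where a loop is said to lie in a gene, from RefSeq GRCh38.p14. Exons and introns were not used here. Replicate numbers were not used to pair the libraries in the main fit. Correlations of same-numbered libraries' deviations were 0.013 to 0.122, and 1 was above 0.1. Those of libraries with different numbers were -0.073 to 0.044, so a weak pairing by number is possible.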

Additional observations from a re-analysis of the deposited data

Results flagged for a closer look

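The 0 h and 6 h values of the named loops were examined as 36 groups of 4 libraries. Of these groups, 5 held a library far from the other 3, where chance gives about 1.8 (1 in 20). These were loop29742 at 6 h (HOXB3 to HOXB6, replicate 2 at 126.2 normalized contacts), loop29748 at 0 h (LINC02086 to IGF2BP1, replicate 3 at 27.6), loop23757 at 6 h (HOXC9 and HOXC8, replicate 3 at 84.9), loop4393 at 6 h (HOXD9 and HOXD8, replicate 3 at 22.6) and loop4394 at 6 h (HOXD8, replicate 4 at 38.6). The 6 h library of replicate 3 accounted for 2 of the 5. The 72 h groups were not examined in this way.

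loop29748 of HOXB rose by 0.71 at 6 h and then changed by -0.69 (log2) from 6 h to 72 h, the opposite direction, with both steps past the threshold in edgeR's quasi-likelihood fit. Both steps share the 6 h libraries.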

How the results depend on the processing

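Every named loop past the threshold kept its direction in all alternatives run, which reuse the libraries that made the calls. Among the fold changes recomputed for all named loops, called or not, 1281 kept their side of the threshold. Of the rest, 61 lost a call and 2 gained one. The 1281 include values that were short of the threshold throughout, and such values could change sign. For example, loop15834 at 6 h against 0 h ranged from -0.3 to 0.31. The alternatives for 72 h against 6 h were chosen after seeing the data. The count of changed HOX loops at 72 h against 0 h stayed between 8 and 16. The count at 6 h was 2 with the length correction, 0 within replicates 1 and 2, and 1 within replicates 3 and 4, from 4. The count from 6 h to 72 h, 10, was 5 with DESeq2, 5 and 4 within the replicate pairs and 6 to 10 with a library left out (6 without replicate 2 of 6 h). Over all loops, 1546 changed at 6 h, with 990 under the length correction, 438 with DESeq2, 568 and 231 within the pairs, 545 at adjusted p under 0.01, and 719 (without replicate 1 of 0 h) to 1547 with a library left out (850 without replicate 2 of 6 h). For 72 h against 0 h the count of 8105 was 4977, 4950, 3951 and 5210 with DESeq2, within the pairs and at 0.01. For 72 h against 6 h the count of 4945 was 1979, 2430, 1663 and 2421 in the same order. The summed ratios with the length correction were 1.026 (HOXA, 6 h), 1.114 (HOXA, 72 h), 0.908 (HOXB, 72 h), 0.839 (HOXC, 72 h), 0.938 (HOXD, 6 h) and 1.16 (HOXD, 72 h). With total counts they were 0.894 (HOXB), 0.863 (HOXC) and 1.314 (HOXD) at 72 h, and the HOXC ratio was 0.829 with DESeq2's size factors and 0.822 to 0.844 with a library left out. The cause of these shifts was not tested. With the replicate number as a block, 4, 13 and 11 HOX loops and 1938, 8560 and 5472 loops in all changed at 6 h, at 72 h and from 6 h to 72 h. With the 72 h libraries of replicates 3 and 4 summed into 1, these counts were 4, 12 and 10, and 1506, 7885 and 4715. Depth limits the sparse loops most: loop4378 held 5 to 26 raw contacts per library.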

Other observations

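Loops around the clusters that have no anchor in them were counted with the same fit. Within 500 kb of HOXC, 6 of 12 tested loops fell at 72 h against 0 h and 0 rose, with a median log2 fold change of -0.27. Within 500 kb of HOXB, 3 of 8 fell and 0 rose (median -0.17). Within 500 kb of HOXD, 4 of 7 rose and 0 fell (median 0.49), and within 500 kb of HOXA 1 of 10 rose and 1 fell (median -0.07). Over all tested loops 16.7% rose and 16.9% fell in that comparison. loop23748, at ATF7, NPFF and TARBP2 near HOXC, changed by -0.66 (edgeR adjusted p = 1.3e-05), and loop29738, from COPZ2 to SNX11 near HOXB, by -0.56 (adjusted p = 0.00029).

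Loops that pass over a whole cluster were few: 2 at HOXA, 1 at HOXC, 2 at HOXD and 0 at HOXB. Of these, loop4388 spans HOXD and had means of 7.20 ± 3.05 (SD, n = 4), 13.2 ± 3.40 (SD, n = 4) and 5.94 ± 1.76 (SD, n = 3) normalized contacts at 0 h, 6 h and 72 h. It fell by 0.96 from 6 h to 72 h (SE 0.30, edgeR adjusted p = 0.014), while the 5 HOXD loops called in that comparison rose. Against 0 h its 72 h value was -0.31 (adjusted p = 0.47). Its mean raw count was 8.5 per library.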
